A study of Homo sapiens with 27 samples.

Results

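The genes described here are the protein-coding genes of the 3 superfamilies that carry out most phase II conjugation: the glutathione S-transferases (GST, with the membrane-bound MGST genes), the UDP-glucuronosyltransferases (UGT) and the cytosolic sulfotransferases (SULT). Members were taken from GENCODE 29 by gene symbol alone, which gave 55 genes (20 GST, 22 UGT and 13 SULT) of the 19675 protein-coding genes matched in the expression tables. They were measured by RNA sequencing of poly-A selected RNA in 9 established, untreated human lines, each with 3 libraries described as separate biological replicates. The lines were HepG2 (labelled liver; spelled Hep2G in some labels), Caco2 (colon), RT4 (kidney), A549 (lung), SK-Mel 28 and SK-Mel 24 (skin), U251 (brain), U2-OS (bone) and BJ (labelled epithelial). Each labelled organ is represented by 1 cell line, or 2 for skin, so a difference between 2 lines is a difference between those lines and not between organs. Culture differed too: A549 and BJ were grown in DMEM, RT4 and U2-OS in McCoy medium and the other lines in EMEM, with 15% serum for SK-Mel 24 and 10% for the rest. The series was made to set transcript levels beside protein levels in the same lines, and it holds the transcript part.

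Phase II enzymes attach a polar group to drugs, hormones, bile pigments and reactive metabolites so that transporters can carry them out of the cell. GST enzymes join glutathione to electrophiles, UGT enzymes transfer glucuronic acid from UDP-glucuronate, and SULT enzymes transfer a sulfonate group from the donor PAPS. In the body the liver and the gut carry the broadest sets, whereas single enzymes such as GSTP1 are widespread outside the adult liver.

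Estimated counts per library ran from 15597117 to 32583547 (median 26090811). Mitochondrial transcripts took 71.6%, 34.6% and 33.3% of the gene counts in the HepG2 libraries and between 0.955% and 5.88% in the other 24, which lowers every nuclear transcripts-per-million (TPM) value of HepG2; TPM recomputed without mitochondrial transcripts is given beside the deposited TPM for the members in HepG2. Marker genes matched the labels for HepG2, where 8 of 9 hepatocyte markers were enriched over every other line. HepG2 was also enriched for 1 enterocyte marker (FABP1), 2 osteoblast markers (BGLAP and ALPL) and 1 alveolar and airway marker (SFTPB). For BJ, all 8 fibroblast markers were enriched, although its label says epithelial. For RT4, 6 of 8 urothelial markers were enriched and none of the 4 kidney tubule markers tested. Melanocyte markers were enriched in SK-Mel 28 (6 of 8) and SK-Mel 24 (1, S100B), and 3 of 8 enterocyte markers in Caco2. None of the 5 osteoblast markers tested was enriched in U2-OS and none of the 7 astroglial markers tested in U251. Of 8 alveolar and airway markers, 5 of them tested, A549 was enriched for 1, MUC5AC. Outside their labels, Caco2 was enriched for 1 kidney tubule marker and U2-OS for 1 urothelial marker (KRT5). COL1A1, enriched in BJ, is also on the osteoblast list, and S100B is also on the astroglial list. None of the 4 haematopoietic markers tested was enriched in any line. In bulk RNA, fewer cells that express a gene and less RNA per cell cannot be told apart.

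Of the 55 members, 42 had enough counts to be tested, among 17220 genes in all, in edgeR's quasi-likelihood model, with Benjamini-Hochberg adjustment over all genes tested. All 42 differed among the 9 lines at an adjusted p under 0.05, against 98.3% of all genes tested, so that difference is the background here. A gene was called enriched in a line when it exceeded each of the other 8 lines at an adjusted p under 0.05 with a margin of 4-fold or more over the nearest of them, and depleted by the mirror rule. Enrichment was called for 19 of the 42 members, against 14.1% of all genes. HepG2 held 8 of them (MGST2, SULT1A1, SULT1A2, SULT1A3, SULT1B1, SULT1E1, SULT2A1 and UGT2B10), against 3.82% of all genes. RT4 held 5, all UGT1A genes (UGT1A1, UGT1A4, UGT1A6, UGT1A8 and UGT1A10), against 2.07% of all genes. Caco2 held GSTA2 and SULT1C4 (1.18% of all genes), A549 held UGT1A7 and UGT2B15 (0.836%), SK-Mel 24 held GSTM1 (0.929%) and SK-Mel 28 held SULT4A1 (1.25%). No member was enriched in BJ, U2-OS or U251, against 1.77%, 1.91% and 0.314% of all genes in that order. Depletion was called for 2 members, against 5.88% of all genes: GSTA4 in RT4 (0.796% of all genes) and MGST1 in SK-Mel 24 (0.168%). None was depleted in HepG2, Caco2, A549, SK-Mel 28, U251, U2-OS or BJ, against 2.00%, 0.708%, 0.348%, 0.424%, 0.581%, 0.488% and 0.366% of all genes in that order. By superfamily, 3 of 17 GST, 8 of 14 UGT and 8 of 11 SULT genes tested were enriched in a line, and both depleted genes were GSTs.

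Expression ranged from abundant in all lines to undetected. Of the 55 members, 11 reached a mean of 1 TPM in all 9 lines, 40 reached it in some line, 26 reached 20 TPM in some line, and 3 (GSTA5, SULT1C3 and UGT2A2) had 0 counts in all 27 libraries. Summed over its members, the GST superfamily lay between 747 ± 416 TPM in HepG2 (1563 ± 252 TPM without mitochondrial transcripts) and 3375 ± 430 TPM in A549 (SD, n = 3 libraries, as throughout). Without mitochondrial transcripts the lowest line was U2-OS, with 1546 ± 287 TPM, close to HepG2. The UGT sum ran from 0.159 ± 0.112 TPM in BJ to 905 ± 125 TPM in RT4. The SULT sum ran from 8.69 ± 1.87 TPM in U251 to 213 ± 113 TPM in HepG2 (458 ± 65.0 TPM without mitochondrial transcripts).

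**Figure D1:**
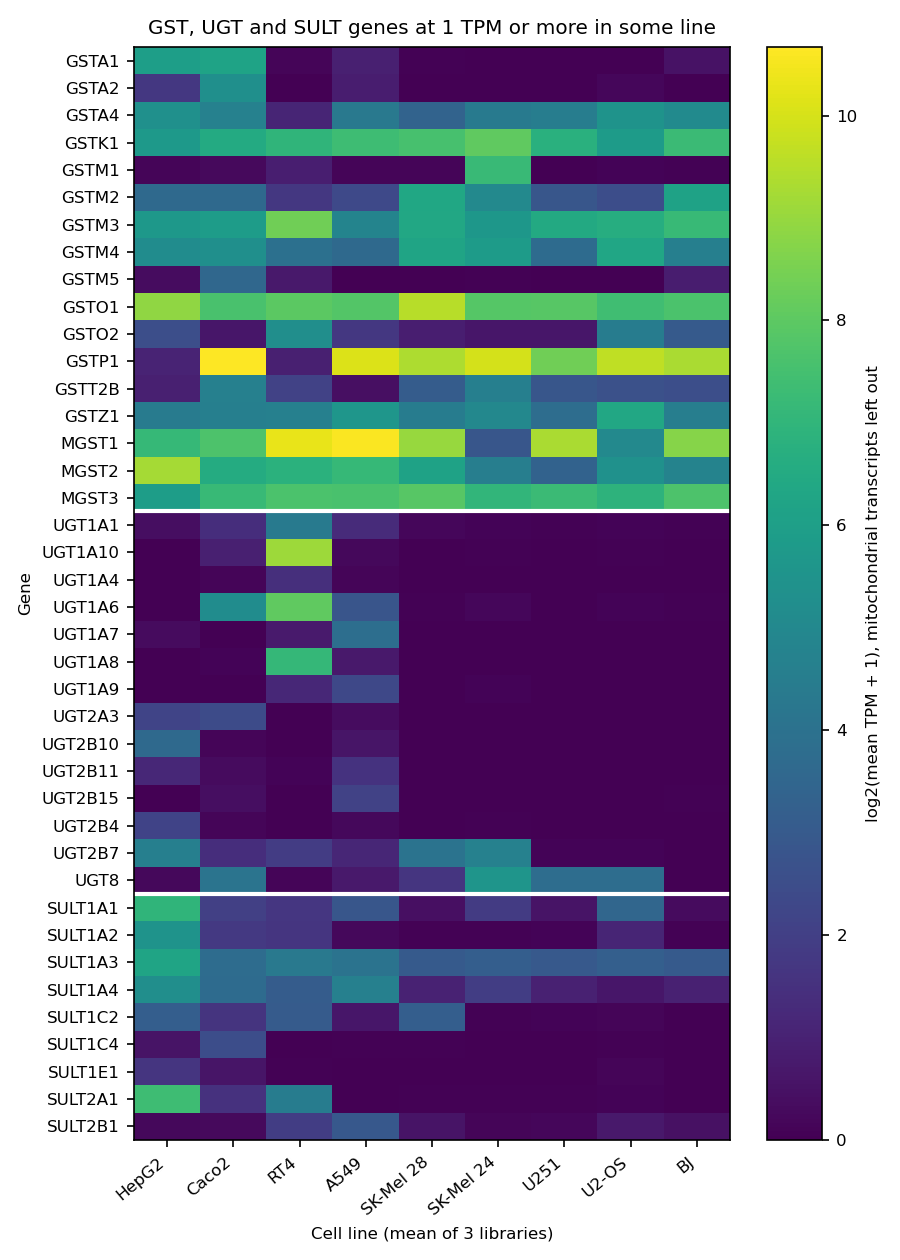
Mean level of the 40 members that reached 1 TPM in some line, as log2(mean TPM + 1) over 3 libraries with mitochondrial transcripts left out, 1 row per gene (GST above, UGT in the middle, SULT below, parted by white lines) and 1 column per cell line. GST rows are filled across most lines, whereas UGT rows are dark in BJ and light up for UGT1A genes in RT4, and several SULT rows peak in HepG2.

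GSTP1, the pi-class enzyme and the most abundant cytosolic GST outside the adult liver, was near 0 in HepG2 and RT4 and among the most abundant members in the other 7 lines. It lies at chr11:67583595-67586656, plus strand (GRCh38). HepG2 libraries had 0.389, 0.532 and 0.245 TPM. RT4 libraries had 0.359, 1.25 and 0.866 TPM. Caco2, the highest line, had 1215, 1836 and 1608 TPM. The remaining 6 lines lay between 218.8 TPM (a U251 library) and 1222 TPM (an A549 library), so neither HepG2 nor RT4 overlapped any other line. In the fitted order U251, the next line up, exceeded HepG2 by a log2 difference of 7.98 ± 0.42 SE, adjusted p = 4.19e-14. HepG2 and RT4 were not told apart (log2 difference 0.49 ± 0.54 SE, adjusted p = 0.45), so neither met the rule for depletion in 1 line. With mitochondrial transcripts left out, the HepG2 libraries held 1.85, 0.923 and 0.421 TPM. One transcript, ENST00000398606 (965 bases), made up 98.2% of the gene's TPM in Caco2.

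The 250 bases before the RefSeq start of GSTP1 (chr11:67583562-67583811, plus strand, GRCh38.p14) are shown because this gene was near 0 in HepG2 and RT4 and abundant in the other lines. Capitals mark the 1 match to the antioxidant response element core TGACNNNGC, the motif of the stress factor NRF2, searched on both strands; it begins 66 bases before the start.
GSTP1: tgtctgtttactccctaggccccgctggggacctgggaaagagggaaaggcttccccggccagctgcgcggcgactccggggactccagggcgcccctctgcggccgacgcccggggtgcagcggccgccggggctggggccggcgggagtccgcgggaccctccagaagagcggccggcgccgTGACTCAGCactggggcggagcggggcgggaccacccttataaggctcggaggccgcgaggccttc
This window holds 28 CpG dinucleotides, against a median of 17 over 15843 protein-coding promoters of the same length. The antioxidant core was found in 9 of the 46 members with a promoter in the RefSeq table and in 11.5% of all promoters, so the match is a description of the letters only.

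The mu-class genes sit side by side on chromosome 1, and each had its own pattern. GSTM1, an enzyme best known because many people lack the gene altogether, was abundant in SK-Mel 24 and at or near 0 in the other 8 lines. It lies at chr1:109687814-109709039, plus strand. SK-Mel 24 libraries had 145, 139 and 147 TPM. In the other 24 libraries the highest value was 1.87 TPM, in RT4, and U251 had 0 counts in all 3 libraries. SK-Mel 24 exceeded RT4, the next line, by 8.62 ± 0.58 SE, adjusted p = 1.08e-11 on the log2 scale. In SK-Mel 24 91.4% of the TPM came from the transcript ENST00000309851 (1161 bases). Only 31.2% of the 31-base words of that transcript occur in no other gene, and GSTM2 shares 50.9% of them, so traces in the other lines are uncertain. Genotypes were not analysed here, so a deleted gene and a silent one cannot be told apart.

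GSTM2, GSTM3 and GSTM4 were detected in every library. GSTM2 was highest in BJ (49.5, 69.6 and 82.0 TPM) and SK-Mel 28 (67.5, 73.5 and 86.8 TPM), which were not told apart (log2 difference 0.14 ± 0.23 SE, adjusted p = 0.63), and lowest in RT4 (1.42, 3.13 and 1.90 TPM). GSTM3, the mu enzyme typical of brain and testis, was highest in RT4 (316, 384 and 195 TPM). BJ came next (112, 132 and 169 TPM), below RT4 by 1.00 ± 0.21 SE, adjusted p = 2.53e-04 on the log2 scale, too little for the 4-fold rule. Protein-coding transcripts of GSTM3 made up 166 ± 60.5 of the gene's 298 ± 95.6 TPM in RT4. GSTM4, a mu enzyme of wide expression, had 88.2, 97.9 and 41.3 TPM in U2-OS, the highest line by TPM, and 9.44, 9.02 and 14.3 TPM in A549, the lowest. GSTM5 was seen at 9.14, 9.89 and 12.04 TPM in Caco2, but all of it came from ENST00000429410, a 439-base processed transcript without a coding region. In BJ, at 0.441, 0.892 and 0.981 TPM, 98.9% came from the coding transcript ENST00000256593.

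The 250 bases before the RefSeq start of GSTM1 (chr1:109687567-109687816, plus strand) are shown since GSTM1 was the only GST enriched in a skin line; capitals again mark the antioxidant core, 165 bases before the start.
GSTM1: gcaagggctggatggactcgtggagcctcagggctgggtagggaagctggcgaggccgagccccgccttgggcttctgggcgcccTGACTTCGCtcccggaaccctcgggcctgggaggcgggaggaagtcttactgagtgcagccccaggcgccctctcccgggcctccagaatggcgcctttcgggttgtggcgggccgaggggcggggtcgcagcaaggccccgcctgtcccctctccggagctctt
The same window of GSTM2 matches it at 110 of 250 positions and that of GSTM5 at 72, compared position by position without alignment. A small shift between the annotated starts would lower these numbers, so they do not show how far the promoters differ.

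**Figure D2:**
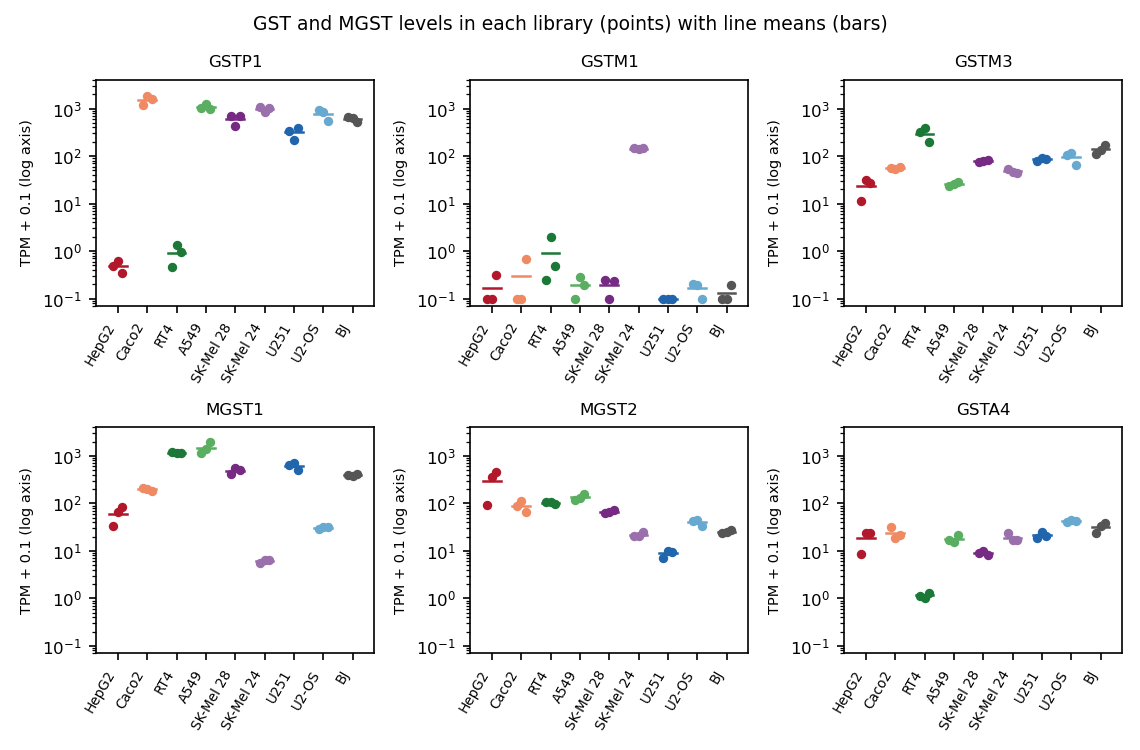
TPM + 0.1 on a log axis for 6 glutathione transferase genes, 1 panel per gene, with 1 point per library and a bar at the mean of the 3 libraries of each line. GSTP1 lies near the floor in HepG2 and RT4 alone, GSTM1 is high in SK-Mel 24 alone, MGST1 is lowest in SK-Mel 24 and GSTA4 in RT4.

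Of the alpha-class GSTs, which also isomerise steroids and reduce lipid peroxides, GSTA1 and GSTA2 were highest in the liver and gut lines. GSTA1 had 4.73, 62.5 and 31.3 TPM in HepG2 (22.5, 108 and 53.8 TPM without mitochondrial transcripts) and 96.0, 54.0 and 58.3 TPM in Caco2. The 2 lines overlapped and were not told apart (log2 difference of HepG2 over Caco2 0.59 ± 0.52 SE, adjusted p = 0.335), whereas Caco2 exceeded A549, the next line, by 6.25 ± 0.69 SE, adjusted p = 3.08e-07 on the log2 scale. Outside these 2 lines no library passed 1.68 TPM. GSTA2, which differs from GSTA1 in few residues, was enriched in Caco2, with 48.4, 24.6 and 38.8 TPM. HepG2, the next line, had 0.471, 1.84 and 0.883 TPM (2.24, 3.20 and 1.52 without mitochondrial transcripts), a log2 margin of 3.20 ± 0.60 SE (adjusted p = 0.00376). Of the 31-base words of the main GSTA2 transcript 29.4% also occur in GSTA1, and 38.1% of those of GSTA1 occur in GSTA2. Part of the split between the 2 genes is therefore an estimate. With their counts summed before the fit, Caco2 exceeded HepG2 by a log2 margin of only 0.12, and the pair was not enriched in any line. GSTA3 and GSTA5 were not tested, with at most 0.391 TPM and 0 counts in any library.

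The promoters of GSTA1 (chr6:52803817-52804066, minus strand) and GSTA2 (chr6:52763476-52763725, minus strand) are set side by side because the estimated levels of the pair parted in HepG2. Capitals mark the 7 bases at which the windows differ.
GSTA1: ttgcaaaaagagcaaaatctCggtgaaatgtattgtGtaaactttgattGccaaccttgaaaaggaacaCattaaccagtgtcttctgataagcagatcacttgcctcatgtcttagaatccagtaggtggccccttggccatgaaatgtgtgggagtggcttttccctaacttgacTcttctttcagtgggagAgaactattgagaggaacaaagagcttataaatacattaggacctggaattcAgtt
GSTA2: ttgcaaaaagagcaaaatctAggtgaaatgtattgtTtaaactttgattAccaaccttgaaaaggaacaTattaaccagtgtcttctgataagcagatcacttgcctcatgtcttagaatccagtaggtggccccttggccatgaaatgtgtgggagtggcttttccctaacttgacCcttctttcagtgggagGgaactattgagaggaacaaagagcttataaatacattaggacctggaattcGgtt
The windows are identical at 243 of 250 positions (97.2%).

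GSTA4, the alpha enzyme for the lipid peroxidation product hydroxynonenal, was depleted in RT4. RT4 libraries had 0.997, 0.934 and 1.21 TPM, against a lowest value of 8.01 TPM in the other 24 (a SK-Mel 28 library). RT4 lay below SK-Mel 28, the next lowest line, by a log2 margin of 2.67 ± 0.25 SE (adjusted p = 1.75e-08). By deposited TPM the highest line was U2-OS, with 39.9, 43.4 and 42.6 TPM.

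GSTO1, which reduces dehydroascorbate and methylated arsenic, had 738, 667 and 663 TPM in SK-Mel 28, its highest line by deposited TPM. In the count model HepG2 and SK-Mel 28 were not told apart (log2 difference of HepG2 over SK-Mel 28 0.35 ± 0.24 SE, adjusted p = 0.2), and HepG2 libraries held 87.9, 278 and 302 TPM as deposited and 418, 481 and 518 TPM without mitochondrial transcripts. Its neighbour GSTO2 was restricted in comparison. RT4 had 39.1, 29.6 and 36.02 TPM and U2-OS 19.2, 20.5 and 21.8 TPM, whereas no library of the other lines passed 8.86 TPM. GSTK1, the kappa enzyme of mitochondria and peroxisomes, was highest in SK-Mel 24 (247, 263 and 262 TPM), above BJ by 0.48 ± 0.18 SE, adjusted p = 0.0299 on the log2 scale. GSTZ1, which acts in tyrosine breakdown, was highest in U2-OS (98.7, 85.3 and 57.7 TPM), above A549 by 0.65 ± 0.19 SE, adjusted p = 0.00579 on the log2 scale. GSTT2B, a theta enzyme, was highest in Caco2 (21.0, 20.4 and 27.2 TPM) and SK-Mel 24 (22.2, 23.6 and 22.02 TPM). Because 94.2% of the 31-base words of its main transcript also occur in GSTT2, the 2 copies cannot be told apart.

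The membrane-bound MGST genes, which also serve leukotriene synthesis and peroxide reduction, differed in where they were high. MGST1 was depleted in SK-Mel 24, with 5.56, 6.37 and 6.35 TPM. U2-OS, the next lowest, had 29.3, 31.1 and 31.3 TPM, a log2 margin of 2.11 ± 0.22 SE (adjusted p = 5.77e-07). With the number after P in the sample titles as a covariate that margin was 1.89, just under 4-fold. A549 (1159, 1395 and 1941 TPM) and RT4 (1219.6, 1141 and 1166 TPM) were highest and not told apart, with a log2 difference of 0.05 ± 0.19 SE, adjusted p = 0.878. SK-Mel 24 thus combined the highest GSTM1 and GSTK1 levels of the 9 lines with the lowest MGST1 level. MGST2, a relative of leukotriene C4 synthase, was enriched in HepG2, with 91.2, 357 and 449 TPM as deposited and 434, 619 and 770.0 TPM without mitochondrial transcripts. A549, the next line, had 115, 131 and 157 TPM, which overlaps the deposited but not the recomputed HepG2 values. The log2 margin of HepG2 over A549 in the count model was 3.15 ± 0.25 SE (adjusted p = 6.50e-10). MGST3 was the most even of the 3, with 204, 221 and 250.4 TPM in SK-Mel 28, its highest line by TPM, and 10.1, 34.3 and 41.9 TPM in HepG2, its lowest (48.2, 59.5 and 72.0 TPM without mitochondrial transcripts).

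The UGT1A genes are alternative first exons spliced to a shared set of last exons, so that each enzyme has its own substrate-binding part and all share the part that binds UDP-glucuronate. They were abundant in RT4, present in Caco2 and A549 and near 0 in the other 6 lines. Summed over the 9 genes, RT4 had 933, 1009 and 766 TPM. Caco2 had 29.2, 43.1 and 38.9 TPM and A549 20.03, 25.0 and 32.01 TPM. HepG2 had 0.205, 0.301 and 0.158 TPM, and 0.975, 0.522 and 0.271 TPM without mitochondrial transcripts, although its hepatocyte markers were present. No library of BJ, U251, U2-OS or the 2 skin lines passed 0.579 TPM for the whole group.

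The 3 lines led with different genes of the locus, UGT1A10 in RT4, UGT1A6 in Caco2 and UGT1A7 in A549. In RT4, UGT1A10, an enzyme of the gut, had 569, 539 and 419 TPM, against 0.763, 1.91 and 0 TPM in Caco2, a log2 margin of 9.50 ± 0.74 SE (adjusted p = 6.54e-09). UGT1A6, which conjugates small phenols, had 212, 303 and 218.2 TPM in RT4, against 27.1, 39.3 and 36.6 TPM in Caco2, a log2 margin of 2.13 ± 0.36 SE (adjusted p = 2.77e-04). UGT1A8 had 133, 141 and 106 TPM in RT4, against 0.638, 0.546 and 0.671 TPM in A549 (log2 margin 7.95 ± 0.37 SE, adjusted p = 1.13e-09). UGT1A1, the bilirubin enzyme, had 14.6, 20.9 and 18.96 TPM in RT4, against 1.12, 1.58 and 2.09 TPM in Caco2 (log2 margin 3.68 ± 0.41 SE, adjusted p = 2.98e-07). Summed over their transcripts, UGT1A10, UGT1A8, UGT1A6 and UGT1A1 thus had levels in RT4 that no other line reached. The margin of UGT1A6 was the smallest of them. Without Caco2 replicate 1, and with library totals in place of TMM factors, it was 1.97, just under 4-fold. UGT1A4 had 1.32, 1.57 and 1.81 TPM in RT4 (log2 margin over A549 4.04 ± 0.89 SE, adjusted p = 0.00769), all of it from a transcript annotated as a target of nonsense-mediated decay and none from its protein-coding transcript. DESeq2 (adjusted p = 1, the highest over the settings tried, which gave 6.01e-04 or more) and the fit with the number after P in the sample titles as a covariate (adjusted p = 0.122) did not call it. In A549 the leading first exon was that of UGT1A7, with 11.1, 11.97 and 15.2 TPM, against 0.693, 0.858 and 0.404 TPM in RT4 (log2 margin 4.06 ± 0.51 SE, adjusted p = 4.37e-06). UGT1A6 followed in A549 with 4.001, 6.29 and 6.92 TPM. UGT1A9 had 3.004, 3.76 and 4.82 TPM in A549, against 1.51, 1.25 and 0.723 TPM in RT4, which missed the test (log2 difference 1.41 ± 0.56 SE, adjusted p = 0.0507). In Caco2, UGT1A6 carried nearly the whole group. UGT1A3 stayed at or below 1.74 TPM in every library and UGT1A5 at or below 0.0551 TPM.

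**Figure D3:**
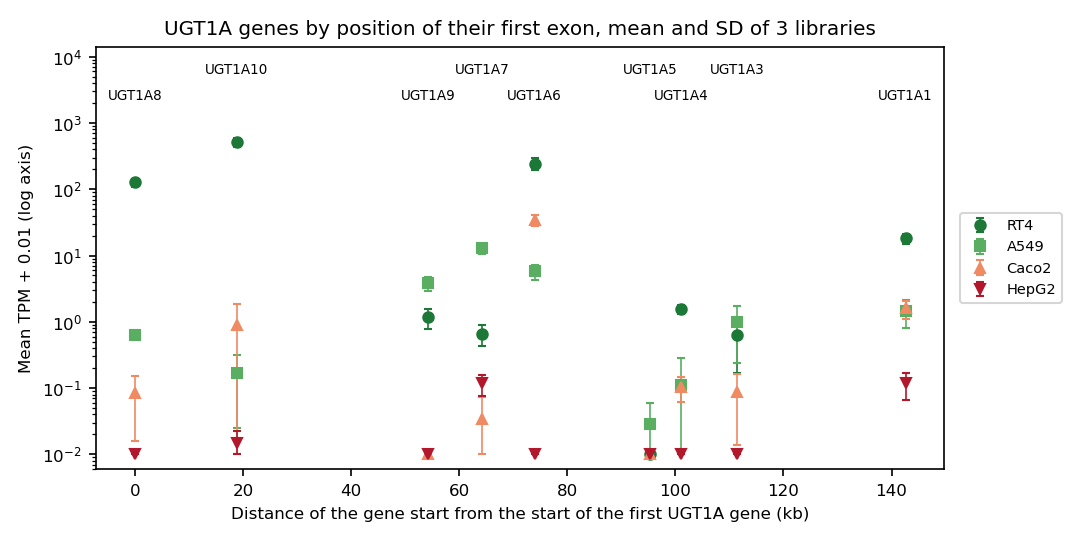
Mean TPM + 0.01 (log axis) of the 9 UGT1A genes in RT4, A549, Caco2 and HepG2, placed by the distance of each gene start from the first one in kilobases; error bars are the SD of 3 libraries. RT4 is high at UGT1A8, UGT1A10 and UGT1A6 and low at UGT1A9 and UGT1A7 between them, where A549 is higher; HepG2 stays near the floor.

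Along the chromosome the order of levels in RT4 was not a gradient. The genes start at chr2:233617645 for UGT1A8, followed by UGT1A10, UGT1A9, UGT1A7, UGT1A6, UGT1A5, UGT1A4, UGT1A3 and UGT1A1, all on the plus strand. UGT1A9 (1.16 ± 0.404 TPM) and UGT1A7 (0.652 ± 0.230 TPM) lie between UGT1A10 (509 ± 79.5 TPM) and UGT1A6 (244 ± 50.7 TPM) in RT4. Part of the split is an estimate, because the genes share their last exons. Of the 31-base words of the main transcript, 22.6% were found in UGT1A10 alone, 18.7% in UGT1A8 alone and 22.3% in UGT1A6 alone. The counts summed over the group do not depend on that split, whereas the summed TPM can, because the transcripts differ in length. In the count model the summed group was enriched in RT4 over Caco2, with a log2 margin of 4.82 (adjusted p = 6.58e-10).

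The transcripts behind UGT1A6 differed between lines. In Caco2 66.8% of its TPM came from ENST00000305139, the 2479-base full-length transcript, and in A549 65.0%. In RT4 the same transcript had 43.6 ± 13.9 TPM, 17.9% of the gene. The whole gene averaged 34.3 TPM in Caco2, so the lead of RT4 over Caco2 was much smaller for this transcript than for the gene. The rest in RT4 came from ENST00000406651 (785 bases, 33.01%), ENST00000446481 (832 bases, annotated as a target of nonsense-mediated decay, 28.8%) and ENST00000373424 (1128 bases, 18.5%). ENST00000406651 shares 77.4% of its 31-base words with UGT1A1, so its level is partly an estimate. The share was not computed for the full-length transcript. UGT1A10 in RT4 rested to 92.1% on the full-length ENST00000344644 (2408 bases).

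Of the 8 UGT1A promoters in the RefSeq table, 5 hold GCGTG, the core that the aryl hydrocarbon receptor binds. GCGTG is common, found in 39.2% of all promoters and in 12 of the 46 members. The windows of UGT1A6 (chr2:233691452-233691701, plus strand) and UGT1A8 (chr2:233617383-233617632, plus strand) are shown because both genes were enriched in RT4. Capitals mark the core, 200 bases before the start of UGT1A6 and, as CACGC on the opposite strand, 26 bases before that of UGT1A8.
UGT1A6: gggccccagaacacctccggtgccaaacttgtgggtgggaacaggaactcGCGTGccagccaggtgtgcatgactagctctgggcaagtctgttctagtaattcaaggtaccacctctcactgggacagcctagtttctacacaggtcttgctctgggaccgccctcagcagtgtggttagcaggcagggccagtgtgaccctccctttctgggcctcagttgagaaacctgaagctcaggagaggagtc
UGT1A8: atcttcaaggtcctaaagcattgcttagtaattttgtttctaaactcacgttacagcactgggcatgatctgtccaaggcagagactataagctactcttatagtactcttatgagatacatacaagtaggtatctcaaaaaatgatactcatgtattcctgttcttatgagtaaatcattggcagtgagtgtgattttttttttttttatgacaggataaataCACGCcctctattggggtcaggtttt
With mitochondrial transcripts left out, AHR, the receptor itself, had 56.0 ± 18.1 TPM in RT4, 55.0 ± 9.82 TPM in A549, 11.7 ± 5.88 TPM in Caco2 and 1.81 ± 0.557 TPM in HepG2. SK-Mel 24 was highest for AHR, at 59.5 ± 13.9 TPM, and SK-Mel 28 had 20.0 ± 1.52 TPM, with UGT1A genes near 0 in both. BJ had 7.45 ± 3.55 TPM, U2-OS 0.687 ± 0.424 TPM and U251 0.0434 ± 0.0657 TPM. UGT1A1, also enriched in RT4, has no GCGTG in its window, whereas UGT1A7 and UGT1A9, low in RT4, hold it. Any link between AHR and the UGT1A genes was not tested.

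The UGT2 genes, which conjugate steroids, bile acids and opioids, stayed under 10 deposited TPM in every library, apart from UGT2B7. UGT2B10, the nicotine enzyme, was enriched in HepG2, with 1.67, 6.96 and 8.30 TPM (7.94, 12.1 and 14.2 without mitochondrial transcripts), against 0.206, 0.325 and 0.972 TPM in A549 (log2 margin 5.39 ± 0.64 SE, adjusted p = 3.83e-05). DESeq2 did not call it (adjusted p = 0.261; 2.24e-06 to 0.261 over the settings tried). UGT2B15, an androgen enzyme, was enriched in A549, with 1.03, 3.67 and 4.87 TPM, against 0.399, 0.188 and 0.351 TPM in Caco2 (log2 margin 3.25 ± 0.65 SE, adjusted p = 0.00448). With the number after P in the sample titles, whose meaning is not stated, as a covariate, its margin was 1.59 and the call was lost. UGT2B4 reached 0.217, 2.26 and 3.06 TPM in HepG2 (1.03, 3.92 and 5.26 without mitochondrial transcripts) but had too few counts to be tested. UGT2B7, the morphine enzyme, was detected in both skin lines as well as in HepG2. SK-Mel 24 had 20.8, 22.4 and 29.1 TPM and SK-Mel 28 had 16.5, 12.4 and 15.3 TPM. HepG2 had 4.49, 12.7 and 15.8 TPM, and 21.3, 22.02 and 27.1 TPM without mitochondrial transcripts. The count model put HepG2 above SK-Mel 24 by 1.34 ± 0.36 SE, adjusted p = 0.00231 on the log2 scale. The mix of transcripts differed between these lines, and its part in the different order on the 2 scales was not tested. The 866-base ENST00000502942 gave 75.8% of the gene's TPM in the SK-Mel 24 libraries, 84.5% in SK-Mel 28, 41.7% in HepG2, 14.4% in Caco2 and none in A549. The full-length ENST00000305231 (1887 bases) had 5.47 ± 0.700 TPM in SK-Mel 24, 2.19 ± 0.570 TPM in SK-Mel 28 and 5.50 ± 3.43 TPM in HepG2.

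UGT8 uses UDP-galactose and builds the galactosylceramide of myelin. SK-Mel 24 was highest, with 42.2, 52.9 and 42.2 TPM, and Caco2 followed with 18.5, 12.6 and 15.2 TPM, a log2 difference of 1.28 ± 0.26 SE, adjusted p = 1.71e-04. U251 had 12.2, 16.2 and 10.02 TPM and U2-OS 10.4, 13.8 and 13.4 TPM. SK-Mel 28, A549, RT4, HepG2 and BJ stayed at or below 2.25 TPM. UGT8 gave 98.3% of the UGT sum in U251 and 95.9% in U2-OS. In BJ, which had 0.0386 TPM of UGT8 at most, no UGT reached 1 TPM.

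The SULT1A genes, which sulfonate phenols, oestrogens and dopamine, were highest in HepG2. SULT1A1, the main phenol sulfotransferase, had 25.3, 62.9 and 86.7 TPM in HepG2 (120.1, 109 and 149 TPM without mitochondrial transcripts). U2-OS, the next line, had 13.4, 12.2 and 5.27 TPM, and the log2 margin was 4.81 ± 0.31 SE (adjusted p = 1.69e-11). SULT1A2 had 8.24, 24.2 and 29.1 TPM in HepG2 (39.2, 42.0 and 49.9 without mitochondrial transcripts), against 1.54, 3.57 and 1.92 TPM in Caco2 (log2 margin 5.00 ± 0.46 SE, adjusted p = 7.83e-09). SULT1A3, the dopamine sulfotransferase, was enriched in HepG2 with 15.9, 44.8 and 41.1 TPM (75.8, 77.6 and 70.6 TPM without mitochondrial transcripts; log2 margin over RT4 2.78 ± 0.34 SE, adjusted p = 8.41e-07; margin 1.63, below 4-fold, with library totals in place of TMM factors). SULT1A4 is its near copy, and 98.4% of the 31-base words of ENST00000360423 occur in SULT1A3 too, so only their sum can be read. That sum was 24.2, 65.1 and 63.0 TPM in HepG2, 115, 113 and 108 TPM there without mitochondrial transcripts, and 47.4, 38.3 and 30.0 TPM in A549. In the count model the summed pair was enriched in HepG2 over A549, with a log2 margin of 2.50 (adjusted p = 3.77e-09), and the sum of SULT1A1 and SULT1A2, which share 36.6% of the words of ENST00000314752, over U2-OS with a margin of 5.12 (adjusted p = 3.01e-12).

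SULT2A1, which sulfonates DHEA and bile acids in the liver and the adrenal gland, was highest in HepG2, with RT4 next. HepG2 had 28.4, 81.4 and 125 TPM (135, 141 and 215 TPM without mitochondrial transcripts) and RT4 20.3, 19.8 and 18.2 TPM, a log2 margin of 3.63 ± 0.30 SE (adjusted p = 3.40e-09). Caco2 followed with 2.83, 0.986 and 1.48 TPM, below RT4 by 3.65 ± 0.32 SE, adjusted p = 1.26e-09 on the log2 scale, and A549 had 0 counts in all 3 libraries. All of it came from the single annotated transcript, ENST00000222002. SULT2B1, the cholesterol sulfotransferase of skin, was highest in A549 (8.50, 6.44 and 4.45 TPM) and RT4 (2.60, 2.63 and 2.54 TPM), which were not told apart (log2 difference 1.01 ± 0.48 SE, adjusted p = 0.0799). SULT1C2 had 5.40, 8.47 and 8.99 TPM in SK-Mel 28, 7.74, 9.05 and 3.46 TPM in RT4 and 1.54, 5.84 and 3.96 TPM in HepG2 (7.31, 10.1 and 6.79 without mitochondrial transcripts), whereas no library of SK-Mel 24, U251, U2-OS, A549 or BJ passed 0.692 TPM. SULT1C4, a fetal enzyme, was enriched in Caco2 with 4.50, 3.98 and 5.26 TPM, against 0.205, 0.0520 and 0.202 TPM in HepG2 (0.975, 0.0902 and 0.346 without mitochondrial transcripts; log2 margin 2.53 ± 0.65 SE, adjusted p = 0.0169). Without HepG2 replicate 2 or 3 that call did not pass (adjusted p = 0.0964 and 0.0914; the other settings gave 1.91e-07 to 0.0789, the highest from DESeq2). A further 3 calls rest on low levels. SULT1E1, the oestrogen sulfotransferase, had 0.309, 1.16 and 1.73 TPM in HepG2 (1.47, 2.004 and 2.97 without mitochondrial transcripts), against 0.780, 0.179 and 0.557 TPM in Caco2 (log2 margin 2.94 ± 0.52 SE, adjusted p = 4.02e-04); with library totals in place of TMM factors the margin was 1.68, below 4-fold. SULT4A1, a brain protein with no settled substrate, had 0.868, 0.726 and 0.393 TPM in SK-Mel 28, against 0, 0.266 and 0.118 TPM in BJ (log2 margin 2.80 ± 0.70 SE, adjusted p = 0.0284). None of the SULT4A1 signal in SK-Mel 28 came from a protein-coding transcript, and the call was lost without SK-Mel 28 replicate 1 or 2, without U2-OS replicate 2 and without any 1 of the BJ libraries. SULT1B1, a thyroid hormone sulfotransferase, was called in HepG2 (log2 margin 2.11 ± 0.51 SE, adjusted p = 0.00287), yet its 0.661, 0.266 and 0.242 TPM there (3.14, 0.461 and 0.416 without mitochondrial transcripts) overlapped the 0.465, 0.489 and 1.18 TPM of U2-OS, so the lines are not separated on the TPM scale. Its margin was 0.67 without HepG2 replicate 1, and 1.91 and 1.94 without U2-OS replicate 1 and 2, all below 4-fold. It was 0.20 with library totals in place of TMM factors and 1.77 with the number after P in the sample titles as a covariate.

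**Figure D4:**
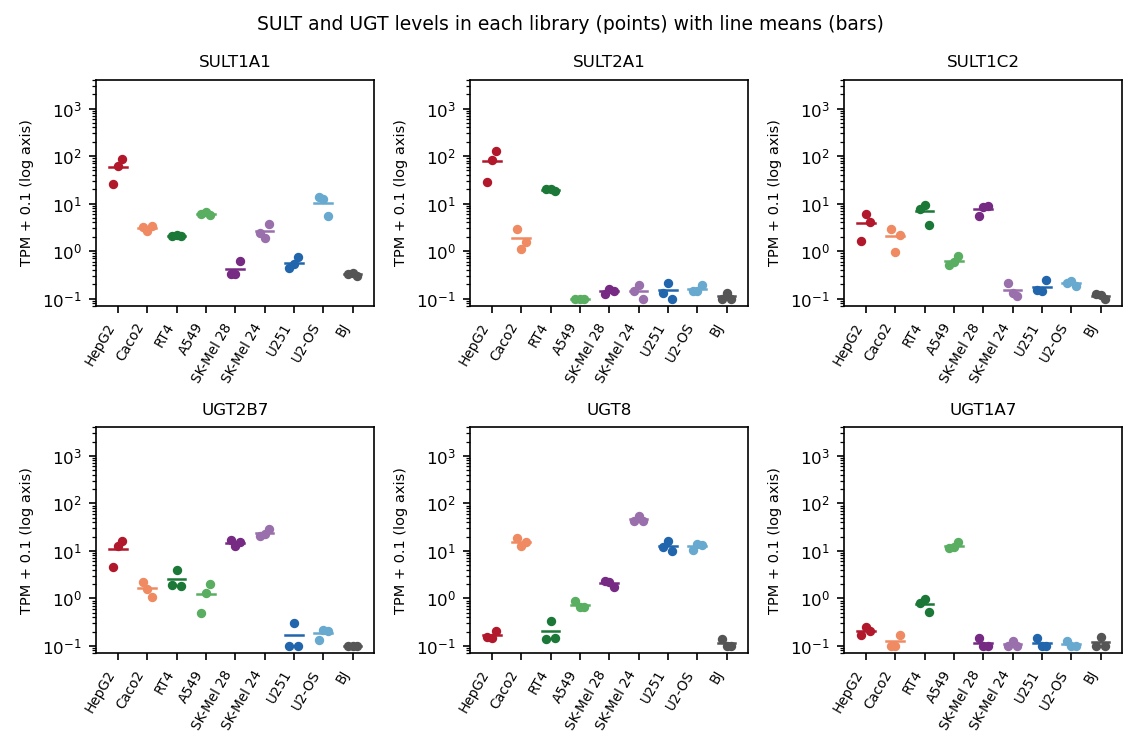
TPM + 0.1 on a log axis for 3 SULT and 3 UGT genes, 1 panel per gene, with 1 point per library and a bar at the mean of the 3 libraries of each line. SULT1A1 and SULT2A1 peak in HepG2, SULT2A1 is next in RT4, UGT2B7 is high in both skin lines, UGT8 in SK-Mel 24, and UGT1A7 in A549.

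HepG2 and Caco2, the liver and gut lines, were compared directly because both organs are the main sites of conjugation in the body. HepG2 was higher for 16 members and lower for 10 (adjusted p under 0.05 and at least 2-fold), against 22.6% of all genes higher and 23.6% lower, and 16 of 42 were not called. Of the 11 SULT genes tested, 8 were higher in HepG2, led by SULT2A1 (log2 fold change 7.29 ± 0.36, as ± SE here and in the following) and SULT1A1 (5.85 ± 0.33). These 8 count SULT1A3 and SULT1A4 separately, although only the sum of that pair can be read. SULT1C4 was lower (log2 fold change -2.53 ± 0.65). The UGTs parted: UGT2B10 (7.71 ± 0.77) and UGT2B7 (4.34 ± 0.42) were higher in HepG2, as were UGT1A7 (4.21 ± 0.91) and UGT2B11 (2.37 ± 0.78) at under 1 TPM, whereas UGT8 (-6.38 ± 0.39) and UGT1A1 (-1.75 ± 0.46) were lower. UGT1A10 was lower as well, with 1 count over the HepG2 libraries and 83 over those of Caco2. UGT1A6 had 0 counts in HepG2 and 2923 in Caco2, which makes it at least 445-fold lower in HepG2 when 3 counts over the line are taken as the floor. UGT2B15, likewise at 0 in HepG2, had 31 counts in Caco2 and was at least 4.72-fold lower. Among the GSTs, MGST2 (3.56 ± 0.25), GSTO2 (2.52 ± 0.40), GSTO1 (2.10 ± 0.25) and GSTA4 (1.30 ± 0.21) were higher in HepG2, and GSTP1 (-10.42 ± 0.45), GSTA2 (-3.20 ± 0.60), GSTM5 (-4.08 ± 0.75) and GSTT2B (-4.12 ± 0.73) were lower. The adjusted p of the members named here was at most 0.0136 (UGT2B11). GSTT2B had 23, 0 and 0 counts in the HepG2 libraries, so its level there came from replicate 1 alone. It also could not be told apart from its copy GSTT2. GSTA4 was lower in HepG2 by deposited TPM (18.4 TPM, against 23.9 TPM in Caco2) and higher without mitochondrial transcripts (40.2 TPM, against 24.9 TPM). Scaling by library totals in place of TMM factors lowers each log2 fold change of HepG2 over Caco2 by 1.44 (0.05 for SK-Mel 28 over SK-Mel 24), and with that scaling 9 members were called higher in HepG2 and 17 lower.

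SK-Mel 28 and SK-Mel 24, both labelled skin, were compared because they share a tissue label. SK-Mel 28 was higher for 7 members and lower for 5, against 15.5% of all genes higher and 16.5% lower, and 30 of 42 were not called. MGST1 (log2 fold change 6.38 ± 0.25), SULT1C2 (6.45 ± 0.62), MGST2 (1.68 ± 0.24), GSTO1 (1.66 ± 0.25), GSTM2 (1.34 ± 0.24) and MGST3 (1.04 ± 0.19) were higher in SK-Mel 28. SULT4A1 had 81 counts in SK-Mel 28 and 0 in SK-Mel 24, at least 24.3-fold higher. GSTM1 (-10.89 ± 0.67), UGT8 (-4.39 ± 0.30), SULT1A1 (-2.64 ± 0.39), GSTT2B (-1.57 ± 0.59) and GSTA4 (-1.04 ± 0.21) were lower in SK-Mel 28. The adjusted p was 0.0307 for GSTT2B and at most 2.45e-04 for the others. In this pair of lines too, GSTT2B could not be told apart from its copy GSTT2. Without SK-Mel 24 replicate 1 only 3 members were called lower. All 3 MGST genes were thus higher in SK-Mel 28. The sum over the 8 melanocyte markers lay between 11627 and 16581 TPM in the SK-Mel 28 libraries and between 7009 and 9698 TPM in those of SK-Mel 24. MLANA, PMEL, TYR, DCT, MITF and TYRP1 were enriched in SK-Mel 28, S100B in SK-Mel 24, SOX10 in neither, and no marker had a mean of 0 in either line. In SK-Mel 24 most of the sum was S100B (7822 TPM on average), whereas MLANA, PMEL, TYR and DCT averaged 1.08, 3.10, 0.329 and 0.895 TPM there. SK-Mel 24 was also grown in more serum. The part of these in the differences was not tested.

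**Figure D5:**
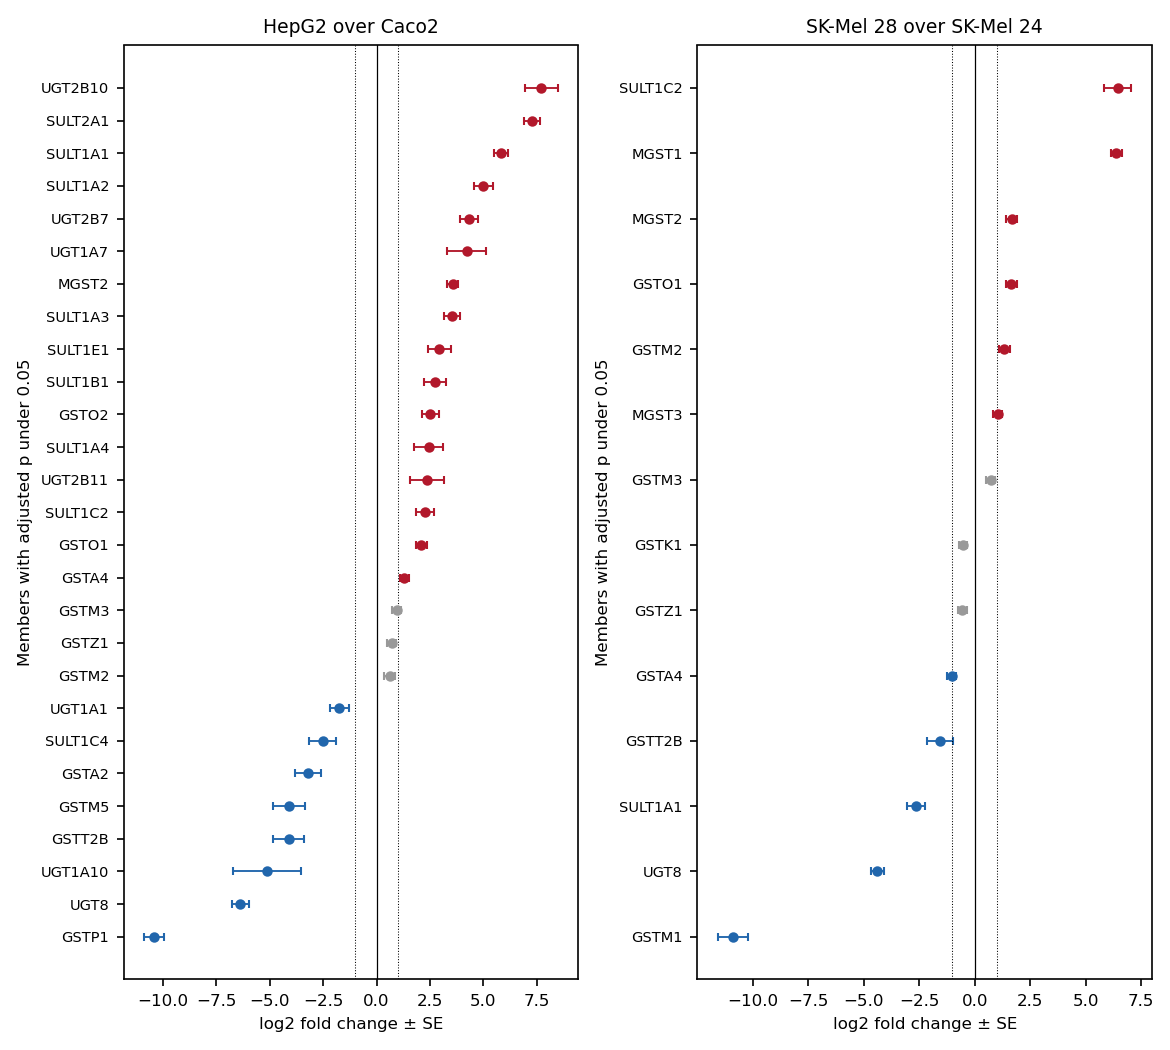
Log2 fold changes ± SE of the members with an adjusted p under 0.05, HepG2 over Caco2 on the left and SK-Mel 28 over SK-Mel 24 on the right; red points are called higher, blue lower and grey under 2-fold, and dotted lines mark 2-fold. Members with 0 counts in 1 of the 2 lines are left out, since their fitted fold change has no meaning beyond a bound.

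The genes that supply, complement or regulate conjugation were read with the same rule, against 14.1% of all genes enriched and 5.88% depleted in some line. Their TPM values are given with mitochondrial transcripts left out in every line. Of 13 glutathione supply genes none was enriched and 2 were depleted: CHAC1, which breaks glutathione down, in HepG2 (0.338 ± 0.309 TPM) and OPLAH, which returns glutamate from the glutathione cycle, in SK-Mel 28 (0.00428 ± 0.00741 TPM). None of the 6 UDP-glucuronate supply genes was called. UGDH, which makes UDP-glucuronate and was singled out after its values were seen, had 635 ± 72.1 TPM in A549 and 51.2 ± 16.03 TPM in RT4, the line with the most UGT mRNA. Of 10 sulfate donor genes 2 were enriched. PAPSS2, which makes the donor PAPS, was enriched in BJ, with 297 ± 50.3 TPM there and 0.134 ± 0.0565 TPM in HepG2, the line with the most SULT mRNA. PAPSS1, the other PAPS synthase, had 42.5 ± 1.59 TPM in BJ and 45.3 ± 13.4 TPM in HepG2. SLC26A1, a sulfate carrier, was called in HepG2 by the count model, with 6.55 ± 3.69 TPM there, against 5.07 ± 2.93 TPM in Caco2. Of 13 other conjugating enzymes INMT, an N-methyltransferase, was enriched in BJ (3.31 ± 1.95 TPM) and NAT1, an N-acetyltransferase, depleted in U251 (0.842 ± 0.0981 TPM).

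Of 12 conjugate exporters 5 were enriched in a line and 3 depleted in a line, against 14.1% and 5.88% of all genes, the shares that apply to each list. The exporters ABCC3 (308 ± 3.73 TPM) and ABCC2 (169 ± 29.9 TPM) were enriched in A549, together with ABCG2, and ABCC6 and SLC22A7 were enriched in HepG2. ABCB1 was depleted in A549 (0.00391 ± 0.00677 TPM), ABCC3 in SK-Mel 28 (0.122 ± 0.109 TPM) and ABCG2 in U251. Of 20 targets of NRF2 outside the conjugating enzymes, 5 were enriched, all in A549 (0.836% of all genes), among them AKR1B10 (5729 ± 1649.7 TPM), AKR1C2 (4727 ± 1154 TPM) and AKR1C3 (4099.6 ± 662 TPM). AKR1C3 was also depleted in SK-Mel 28 and AKR1C1 in U2-OS. Of 22 regulators 5 were enriched: CDX2 in Caco2 (59.1 ± 9.67 TPM), NR1H4 in HepG2 (44.4 ± 14.7 TPM), NR1I2, the pregnane X receptor, in HepG2 (4.52 ± 0.391 TPM), FOXA3 in HepG2 and ESR1 in RT4. ESR1 levels overlapped by TPM (1.79 ± 0.469 TPM in RT4, against 1.76 ± 0.634 TPM in SK-Mel 28). HNF4A, a nuclear receptor of liver and gut, had 33.8 ± 2.003 TPM in HepG2 and 56.8 ± 18.3 TPM in Caco2, and was not called in any line. AHR was depleted in U251 (0.0434 ± 0.0657 TPM). NFE2L2, which encodes NRF2, had 45.5 ± 25.0 TPM in HepG2 and 162 ± 13.0 TPM in SK-Mel 24, the lowest and highest lines by this measure, and KEAP1, its repressor, had 79.7 ± 13.4 TPM in HepG2, the highest, and 41.3 ± 5.17 TPM in SK-Mel 28, the lowest; neither was called in any line.

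The remaining members were barely detected. Of the 55, 13 did not pass the filter on low counts: GSTA3, GSTA5, GSTT4, SULT1C3, SULT6B1, UGT1A5, UGT2A1, UGT2A2, UGT2B17, UGT2B28, UGT2B4, UGT3A1 and UGT3A2. UGT2B4 was the highest of them, and UGT3A2 reached 0.397, 0.531 and 0.296 TPM in SK-Mel 28. Among members tested but not described by library above, UGT2A3 had 1.36, 0.972 and 1.46 TPM in HepG2 (6.46, 1.69 and 2.51 without mitochondrial transcripts). Its Caco2 libraries had 6.34, 1.87 and 4.45 TPM. UGT2B11 was highest by TPM in A549 with 1.17, 1.33 and 3.10 TPM. HepG2 averaged 0.521 TPM of UGT2B11 (1.27 without mitochondrial transcripts). The count model did not tell A549 and HepG2 apart (log2 difference 0.49 ± 0.69 SE, adjusted p = 0.55).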

How the data were processed

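RNA was read from 27 libraries of 9 cell lines. Kallisto 0.43.1, CASAVA 1.8 and the build GRCh38 are listed, with no roles, per the submitters' processing notes. The deposited tables give estimated counts and TPM per transcript, as the authors made them, over all transcripts of a library. Transcripts were matched to GENCODE 29 (9.28% of transcripts had no match and were left out), summed to genes, and counts were rounded. All 27 libraries were fitted together with edgeR 4.0.16 (R 4.3.3; limma 3.58.1): filterByExpr, TMM factors, robust quasi-likelihood test and Benjamini-Hochberg adjustment over 17220 genes. A call for 1 line used the largest p of its 8 one-sided tests. HepG2 TMM factors were 0.255, 0.587 and 0.607. The fit was also run on simulated counts with known changes. That simulation used the same spread for every gene, changed no genes of low counts and had no mitochondrial excess like that of HepG2. It therefore cannot speak for calls at low levels or for the scaling of HepG2. Members are described by library where their mean TPM reached 20 in some line or where they were enriched or depleted; of each pathway list, the 3 called genes with the highest TPM and chosen regulators are named, of which 1 is not reported here. TPM levels are descriptive. The members and gene lists were chosen with earlier results of these data known. DESeq2 1.42.0, other scalings, filters and margins, and each library left out, were tried as alternatives. The p-values set differences between lines against the spread between these libraries, which are replicates of the same lines. Precision is limited by counting at low levels: 3 counts were taken as the floor of a line at 0.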

Additional observations from a re-analysis of the deposited data

How the results depend on the processing

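No enrichment or depletion margin reversed its direction under the settings tried; the fold change of GSTA4 in HepG2 over Caco2 lies within the 1.44 shift that library totals give. The counts of members called moved by over 1.5 times under these settings. With library totals in place of TMM factors, 5 members were enriched in HepG2, 9 were higher and 17 lower in HepG2 than in Caco2, and 3 paralog sums were enriched. With the P number of the titles as a covariate (its meaning is not stated), 1 member was depleted. With a 2-fold margin 4 were depleted. With a 10-fold margin 10 were enriched, 4 of them in HepG2, and 0 depleted. With whole subfamilies summed, 8 were enriched. The cause of these moves was not tested, apart from the margins themselves and the smaller number of summed genes. DESeq2 called 41 members differing, 15 enriched, 2 depleted, 16 higher and 10 lower in HepG2 than in Caco2.

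Leaving out each library in turn gave 43 to 44 members differing, 18 to 20 enriched, 2 depleted, 8 to 9 enriched in HepG2, 4 to 5 in RT4, 15 to 18 higher and 10 to 12 lower in HepG2 than in Caco2, 6 to 8 higher and 3 to 5 lower in SK-Mel 28 than in SK-Mel 24, 17 to 20 pathway genes enriched, 7 to 9 depleted, 87 to 97 neighbours in order told apart, and 5 paralog sums enriched. The main fit tested 42 members, so more members passed the filter on low counts in these fits, and the ranges do not cover an identical set. Enrichment was lost in DESeq2 for UGT2B10 (adjusted p = 0.261, 2.24e-06 to 0.261 over its settings), SULT4A1 (1, 0.0111 to 1), SULT1C4 (0.0789, 1.91e-07 to 0.0964) and UGT1A4 (1, 6.01e-04 to 1). It was lost with library totals for SULT1E1, UGT1A6, SULT1B1 and SULT1A3 (log2 margins 1.68, 1.97, 0.20 and 1.63), and with the P number for SULT4A1, SULT1B1, UGT2B15 and UGT1A4, as was the depletion of MGST1 (margin 1.89). SULT4A1 was also lost with no filter on low counts. Of the TPM values tried without mitochondrial transcripts or with protein-coding transcripts alone, 57 moved by less than 1 SD and 13 by more. No paired analysis was possible because the labels number no replicates; the P numbers, which some lines share, entered as a covariate only.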
